A study of Mus musculus with 24 samples.

Results

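The 9 genes described here, Gfap, Nes, Vim, Hopx, Lpar1, Prom1, Thbs4, Fabp7 and Tnc, are widely used markers of adult radial glia-like neural stem cells. They were taken by symbol from 48321 gene symbols in the read count tables, and all 9 had enough reads to be tested. RNA came from adult C57BL/6 mouse hippocampus, from cells sorted for GFP. Notch2 CKO mice carried Hes5::CreERT2, Notch2 flox/flox and the Rosa26R-CAG::GFP reporter, and wild-type (WT) mice carried Hes5::CreERT2, Notch2 wt/wt and the same reporter. All animals received tamoxifen for 5 days and were analysed 1 day after it, and each sample was a pool of animals, with 3 pools per genotype.

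Radial glia-like cells of the dentate gyrus are quiescent stem cells with an astrocyte-like body and a process that crosses the granule cell layer. Notch signalling keeps them undivided. After ligand binding, the receptor's intracellular domain joins the DNA-binding protein RBPJ and switches on genes such as Hes5, whose promoter drove the Cre here. Most markers of these cells are shared with other cells. Gfap and Fabp7 are also made by astrocytes, Vim and Nes by cells of blood vessels, Prom1 by ependymal cells and oligodendrocyte lineage cells, and Lpar1 by oligodendrocytes.

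Since the study removes a Notch receptor, the stretch of 250 bases before each RefSeq transcription start of the 9 genes (14 starts, GRCm38.p6) was searched on both strands for TGGGAA, the core of the RBPJ binding site. It was present at 6 of the 14 starts, against 21.6% of 32817 mouse promoters of the same length. The stretches of the 2 Tnc starts overlap, as do those of 2 Lpar1 starts, so the 14 are not separate. By gene it was present in 5 of the 9. That count has no matching share over all genes, since a gene with several starts counts if any of them has the core. The match is a description of the letters and not evidence of binding. The matches are printed below with up to 12 bases on each side, 5′ to 3′ on the strand of the gene, with the core in capitals. TTCCCA is the same core read on the opposite strand.
Gfap: gccaggctggtgTTCCCAagaaagccttga
Prom1: ggacgcaacaggTTCCCAgagtcctggagt
Thbs4: tctgcccaccccTTCCCActgtccacctca
Fabp7: gTTCCCAggccccgctgac
Tnc, first start: TTCCCAaggcttctgttt
Tnc, second start: aaaaaaaaaaagTGGGAAaggatgtctgga

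The core began 115 bases before the start in Gfap, 116 in Prom1, 213 in Thbs4, 249 in Fabp7, 250 at the first Tnc start and 81 at the second. Nes, Vim, Hopx and Lpar1 had no such letters in these windows. CACGCG, a site bound by Hes repressors, was found before 1 start of Lpar1 and in 7.62% of all promoters. TTGGCA, a part of the site of the NFI factors that act in astrocyte genes, was found before 1 start of Tnc and in 12.3% of all promoters. The whole stretch is printed for Gfap, which had the core and more reads than the other members, and for Hopx, which lacked it and was the only member whose pools did not overlap between the genotypes. The Gfap stretch lies at chr11:102897201-102897450 on the minus strand and the Hopx stretch at chr5:77115124-77115373 on the minus strand. Neither overlaps an annotated exon.
Gfap: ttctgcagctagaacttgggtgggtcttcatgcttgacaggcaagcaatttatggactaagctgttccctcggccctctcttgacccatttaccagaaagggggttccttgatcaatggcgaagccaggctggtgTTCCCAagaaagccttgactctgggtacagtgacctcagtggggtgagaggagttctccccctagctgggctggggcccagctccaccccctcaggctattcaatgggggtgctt
Hopx: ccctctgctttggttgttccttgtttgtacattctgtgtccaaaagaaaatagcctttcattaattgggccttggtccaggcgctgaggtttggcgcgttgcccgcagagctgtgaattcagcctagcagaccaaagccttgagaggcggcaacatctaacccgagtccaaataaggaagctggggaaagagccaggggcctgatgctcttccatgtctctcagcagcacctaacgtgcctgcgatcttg

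The pools held 40366579 to 53984963 reads in genes, and 1 read was worth 0.0175 to 0.0265 CPM, the read count scaled to the TMM-adjusted library size. Each pool was sequenced as 2 libraries. These differed over 4-fold in 16.7% of the 54 pairs of member and pool, against 20.5% over all tested genes and 11.5% over the better expressed ones (mean log2 CPM from 3 upward). Notch2 itself had 65.3, 116 and 121 CPM in CKO pools 1, 2 and 3, against 99.3, 146 and 303 CPM in WT pools 1, 2 and 3. The ranges overlapped and the change, CKO over WT, was -0.86 on the log2 scale (SE 0.45, edgeR adjusted p = 0.790). The Notch2 count thus did not separate the pools by their label. Reads were counted per gene and not per exon, so this value does not measure recombination of the floxed allele. In such bulk samples, fewer cells of a type and less RNA per cell cannot be told apart.

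Levels of different genes were compared per kilobase (kb) of exon length. Fabp7, a fatty acid binding protein of radial glia and astrocytes, had the highest mean over the 6 pools, 303 CPM per kb against 241 for Gfap, with 274 ± 35.5 CPM per kb in CKO pools and 331 ± 24.2 in WT pools (SD, n = 3 each). Gfap, the intermediate filament protein of astrocytes, had 284 ± 107 CPM per kb in CKO pools, a mean above that of Fabp7, and 199 ± 14.3 in WT pools. Fabp7 stood above Gfap in 5 of 6 pools, the exception being CKO pool 3. Hopx, a homeodomain protein without DNA binding of its own, followed with 21.7 ± 4.14 CPM per kb in CKO pools and 31.3 ± 6.77 in WT pools.

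Gfap stood above Hopx, and Hopx above Vim, in 6 of 6 pools. Vim, Thbs4, Tnc, Prom1 and Lpar1 were close to each other, with means over the 6 pools of 10.6, 9.74, 8.79, 6.41 and 6.02 CPM per kb. In that order the higher gene stood above the next in 4, 3, 3 and 4 of 6 pools, so the order within this group was not fixed. With the longest transcript as the length, Prom1 moved to place 5 at 11.3 CPM per kb. Nes, the intermediate filament protein nestin of neural progenitors, was the lowest in 6 of 6 pools, with 0.668 ± 0.183 CPM per kb in CKO pools and 0.461 ± 0.490 in WT pools. The level of Nes in CPM lay at percentile 34.6 of all tested genes, against 99.6 for Gfap and 98.8 for Fabp7.

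**Figure D1:**
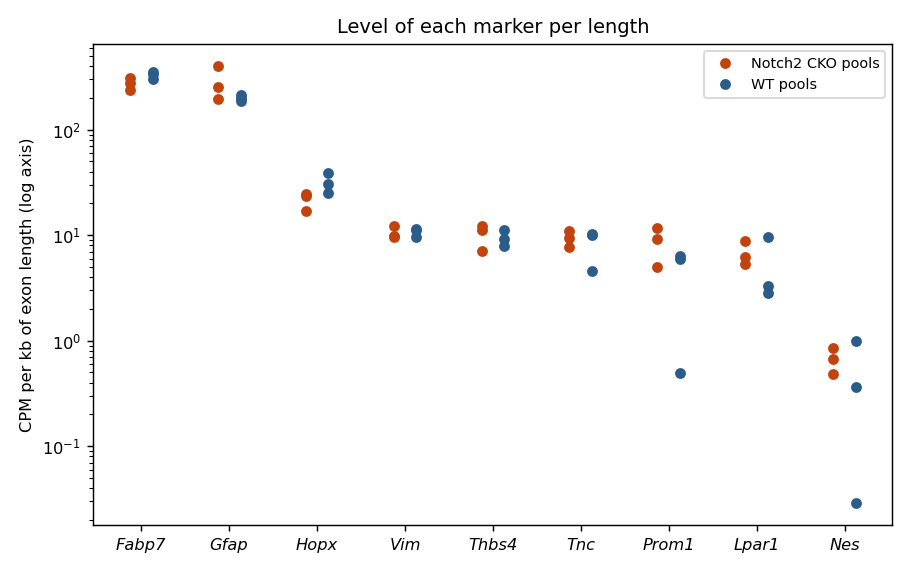
Level of each marker in CPM per kb of exon length on a log axis, 1 point per pool, with the 3 Notch2 CKO pools (orange) left of the 3 WT pools (blue). Fabp7 and Gfap lie between 185 and 403, Hopx between 17.0 and 38.4, the next 5 genes between 2.81 and 12.1 apart from 1 WT pool of Prom1 at 0.491, and Nes between 0.0289 and 0.993.

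No member differed between the genotypes at an edgeR adjusted p under 0.05, and neither did any other gene (0% of 21477 tested genes). At an unadjusted p under 0.05 there were 0 of the 9 members, against 5.91% of all tested genes. With DESeq2, 129 genes passed the adjusted threshold and no member was among them. Fold changes were above 1, that is above 0 on the log2 scale, for 6 members, against 47.2% of all tested genes, and the members' median was 0.18, against -0.06 over all tested genes. Pools did not overlap between the genotypes for 1 member, Hopx, against 15.8% of all genes in either direction and 8.17% in its direction. A count of 1 in 9 is near that background.

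**Figure D2:**
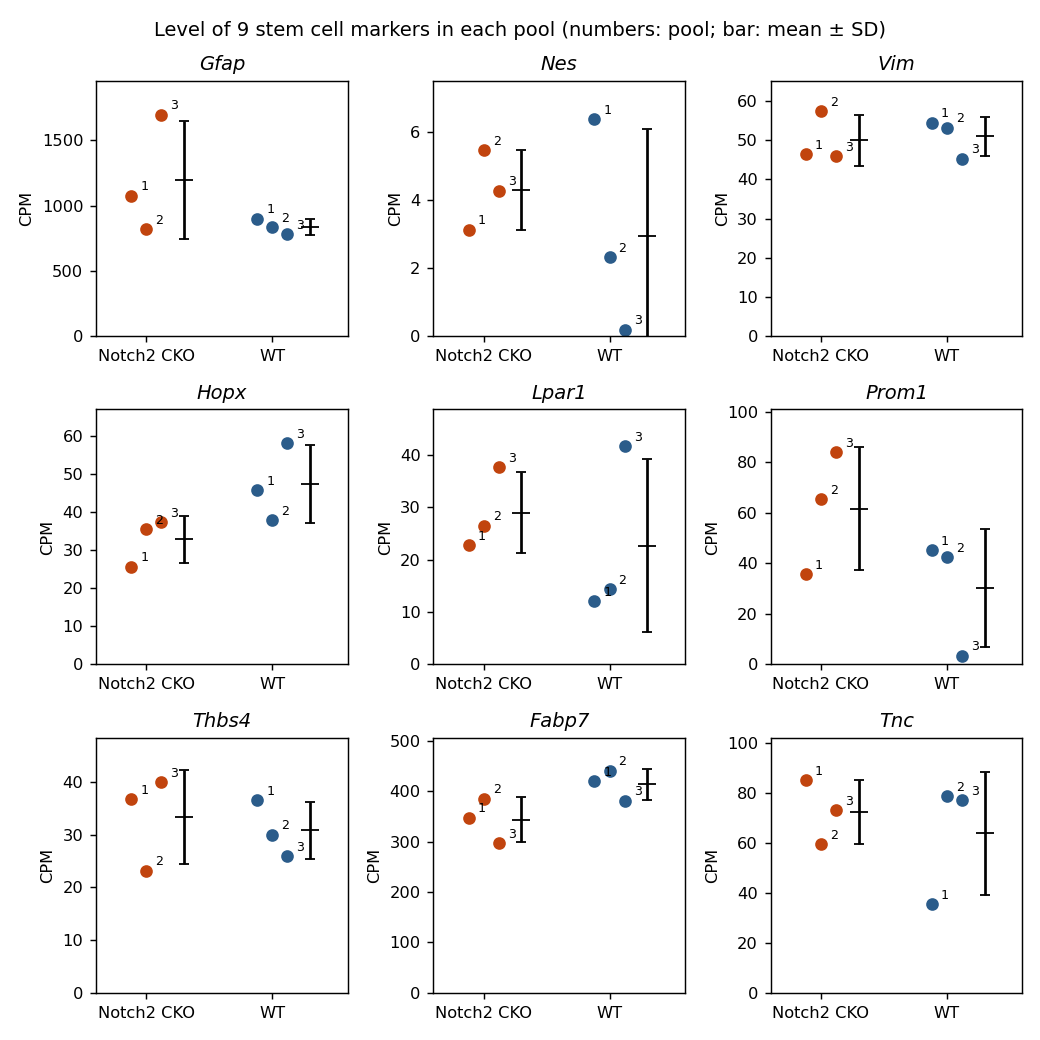
CPM of each of the 9 markers in every pool, with Notch2 CKO left of WT, pool numbers beside the points, and black bars for mean ± SD (n = 3 each; the lower bar of Nes in WT is cut at 0). Only for Hopx do all CKO points, 25.8 to 37.4 CPM, lie below all WT points, 37.9 to 58.3 CPM.

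The first group of members builds the cytoskeleton of the cell. Gfap (chr11:102887336-102900912, minus strand, GRCm38) had 1077, 821 and 1699 CPM in CKO pools 1, 2 and 3, against 900, 833 and 780 CPM in WT pools 1, 2 and 3. CKO pool 3 stood apart at the top, while CKO pool 2 lay inside the WT range, so the ranges overlapped. Gfap had a log2 fold change of 0.52 (SE 0.28, 95% interval -0.15 to 1.19, edgeR adjusted p = 0.790, exact two-sided permutation p = 0.3). Without CKO pool 3 it was 0.22, and without CKO pool 2 it was 0.73. The WT pools of Gfap were the more even ones, with an SD of 60.1 CPM, against 452 CPM in CKO pools.

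The even WT mean hides unlike libraries: library 1 of WT pool 1 had 257 CPM of Gfap and library 2 of that pool 1343 CPM. Without that library 1, the log2 fold change of Gfap was 0.27. Without library 2 of the same pool, it was 0.91. Mature astrocyte markers, 12 genes that were all tested (7 above and 5 below 0, median log2 fold change 0.12, or 0.33 without CKO pool 2 and -0.04 without CKO pool 3), summed to 24860, 22840 and 36330 CPM in CKO pools 1, 2 and 3, against 27120, 27830 and 26680 CPM in WT pools 1, 2 and 3. CKO pool 3 was the highest for this sum as for Gfap. Fabp7, the other member named above as made by astrocytes, was lowest in that pool, at 297 CPM. The part of these cells in the Gfap value was not tested.

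Vim (chr2:13573927-13582826, plus strand), vimentin, the filament protein that pairs with Gfap and nestin, had 46.4, 57.5 and 46.0 CPM in CKO pools 1, 2 and 3, against 54.5, 53.3 and 45.3 CPM in WT pools 1, 2 and 3. All 6 values lay within 1.27-fold, the narrowest range of the 9 members, with a log2 fold change of -0.03 (SE 0.25, 95% interval -0.61 to 0.56, edgeR adjusted p = 0.981). This near-equality rests on summing unlike libraries. Library 1 of WT pool 3 had 6.35 CPM of Vim (98 reads) and library 2 of that pool 80.2 CPM (1610 reads).

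From library 1 of every pool the log2 fold change of Vim was 0.64, and from library 2 it was -0.55. Within library 2, Vim had 38.7, 44.4 and 41.9 CPM in CKO pools 1, 2 and 3, against 51.2, 51.0 and 80.2 CPM in WT pools 1, 2 and 3. The genotypes did not overlap there, as for 4.44% of all genes in that direction and library. The edgeR quasi-likelihood test within library 2 gave an unadjusted p of 0.108 for Vim. Without library 1 of WT pool 3, the log2 fold change over the pools was -0.33, and without library 2 of that pool it was 0.39.

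Nes (chr3:87971078-87980451, plus strand) had 3.12, 5.47 and 4.27 CPM in CKO pools 1, 2 and 3, against 6.37, 2.31 and 0.185 CPM in WT pools 1, 2 and 3. These levels stand on 178, 244 and 217 reads in CKO pools and on 322, 98 and 7 reads in WT pools. The CKO pools all lay inside the WT range, which spanned 34.4-fold, the widest of the 9 members. Nes had a log2 fold change of 0.53 with an SE of 1.08, and its 95% interval ran from -2.02 to 3.09 (edgeR adjusted p = 0.916).

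The sign of the Nes value turned with single pools and libraries: without WT pool 3 it was -0.03, without library 2 of WT pool 1 it was -0.22, and without library 1 of CKO pool 2 it was -0.05. Without WT pool 1 it was 1.79. Library 1 of CKO pool 3 held 7 of its reads and library 2 held 210, while in CKO pool 2 library 1 held 227 and library 2 held 17. The summed CPM of 10 endothelial markers, 9 of them tested (3 above and 6 below 0, median log2 fold change -1.50, or 0.43 without WT pool 1), was 17.7, 29.7 and 40.9 in CKO pools 1, 2 and 3, against 120, 31.6 and 20.5 in WT pools 1, 2 and 3. WT pool 1, the highest pool for Nes, was also the highest for this sum, whose defining marker Cldn5 ranged from 1.65 to 12.5 CPM in CKO pools and from 0.0265 to 59.6 CPM in WT pools. The part of vessel cells in the Nes value was not tested.

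The other genes of the intermediate filament family and its linkers, 11 tested of 14, had a median log2 fold change of -0.06, with 4 above and 7 below 0. The median over all tested genes was the same, but that of the list was -0.40 without WT pool 3 and 0.36 without WT pool 2. The smallest unadjusted p values in the list belonged to Lmnb1, a lamin of the nuclear envelope, and Nefm, a filament protein of neurons. Lmnb1 had 12.8, 8.08 and 8.97 CPM in CKO pools 1, 2 and 3, against 2.59, 2.34 and 3.36 CPM in WT pools 1, 2 and 3, which is 1.85 on the log2 scale (SE 0.52, edgeR adjusted p = 0.790). Nefm had 2.07, 2.49 and 0.275 CPM in CKO pools 1, 2 and 3, against 15.5, 11.1 and 12.1 CPM in WT pools 1, 2 and 3, which is -2.999 on the log2 scale (SE 0.84, edgeR adjusted p = 0.790). CKO and WT pools were apart for both genes, and neither passed the adjusted threshold.

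Hopx (chr5:77086988-77115121, minus strand), which marks quiescent stem cells of several tissues, had 25.8, 35.6 and 37.4 CPM in CKO pools 1, 2 and 3, against 45.9, 37.9 and 58.3 CPM in WT pools 1, 2 and 3. Every CKO pool lay below every WT pool, by the least in CKO pool 3 against WT pool 2. The means were 32.9 ± 6.27 CPM in CKO pools and 47.4 ± 10.3 CPM in WT pools (SD, n = 3 each). Hopx had a log2 fold change of -0.53 (SE 0.31, 95% interval -1.24 to 0.19, edgeR adjusted p = 0.794), and the exact two-sided permutation p was 0.1, the smallest that 3 against 3 pools can give.

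The direction of Hopx was the same from library 1 of each pool, with a log2 fold change of -0.48, and from library 2, with -0.59. Within neither library did the genotypes separate. Leaving out 1 pool at a time gave log2 fold changes of -0.61 to -0.35 for Hopx. Leaving out 1 library gave -0.28 without library 1 of WT pool 1, -0.29 without library 2 of CKO pool 2 and -0.84 without library 2 of WT pool 1. Without library 1 of WT pool 1, library 1 of WT pool 2, library 2 of CKO pool 2 or library 2 of CKO pool 3, that is in 4 of the 12 cases, the Hopx pools overlapped between the genotypes. The antisense gene Hopxos shares exons with Hopx, and since the library preparation does not mark strand their reads cannot be told apart in the shared stretch. Hopxos held 149, 96 and 95 reads in CKO pools 1, 2 and 3, against 152, 153 and 68 in WT pools 1, 2 and 3, beside 1468 to 1902 reads of Hopx in CKO pools and 1607 to 2321 in WT pools.

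Fabp7 (chr10:57784881-57788450, plus strand) had 347, 385 and 297 CPM in CKO pools 1, 2 and 3, against 420, 440 and 381 CPM in WT pools 1, 2 and 3. The highest CKO pool, pool 2, lay just above the lowest WT pool, pool 3, and the other CKO pools lay below all WT pools. Fabp7 had a log2 fold change of -0.27 (SE 0.19, 95% interval -0.72 to 0.18, edgeR adjusted p = 0.801, exact two-sided permutation p = 0.2).

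Fabp7 was the steadiest member between pools of 1 genotype, with an SD of log2 CPM of 0.15, against a median of 0.68 over all tested genes. That median covers genes of all levels, while Fabp7 lay at percentile 98.8 of level, and no median was taken over genes of like level. Its libraries differed in 1 direction: library 1 was above library 2 in 6 of 6 pools. Within library 1, Fabp7 had 370, 456 and 400 CPM in CKO pools 1, 2 and 3, against 541, 539 and 519 CPM in WT pools 1, 2 and 3, and these did not overlap, as for 8.77% of all genes in that direction and library. Within library 2, the values were 313, 326 and 206 CPM in CKO pools, against 291, 322 and 316 CPM in WT pools, and they overlapped. The fit gave -0.37 within library 1 and -0.15 within library 2 on the log2 scale (unadjusted edgeR p = 0.214 and 0.540).

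Of 11 other fatty acid and retinoid binding proteins, 4 were tested, with 1 above and 3 below 0 and a median log2 fold change of -0.66 (-1.06 to -0.37 with 1 pool left out). Fabp5, a neighbour of Fabp7 in function that is found in progenitors and astrocytes, had 50.6, 58.3 and 51.5 CPM in CKO pools 1, 2 and 3, against 93.7, 65.4 and 76.3 CPM in WT pools 1, 2 and 3. Fabp3, the heart-type family member, had 4.403, 2.647 and 2.852 CPM in CKO pools 1, 2 and 3, against 22.3, 4.96 and 5.01 CPM in WT pools 1, 2 and 3. Both were lower in every CKO pool than in any WT pool, by -0.55 (SE 0.24) on the log2 scale for Fabp5 and by -1.70 (SE 0.76) for Fabp3, with an edgeR adjusted p of 0.790 for each. Counts within this family are uncertain where its members or their pseudogenes are near identical, since reads with several alignments were not set apart in the counting.

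**Figure D3:**
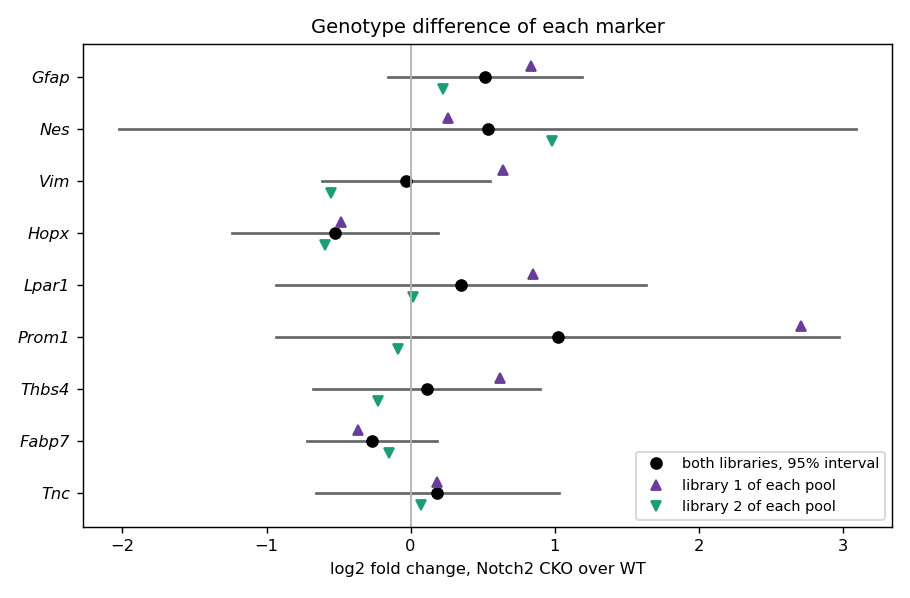
Log2 fold change of each marker, Notch2 CKO over WT, from both libraries summed (black point, with its 95% interval from the edgeR fit), from library 1 only (purple, pointing up) and from library 2 only (green, pointing down). All 9 intervals cross 0, and library 1 and library 2 lie on opposite sides of 0 for Vim, Prom1 and Thbs4.

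Lpar1 and Prom1 are proteins of the cell surface. Lpar1 (chr4:58435255-58553898, minus strand), a receptor for lysophosphatidic acid whose reporter mouse labels hippocampal stem cells, had 22.7, 26.5 and 37.7 CPM in CKO pools 1, 2 and 3, against 12.1, 14.3 and 41.6 CPM in WT pools 1, 2 and 3. WT pools 1 and 2 were the lowest of all and WT pool 3 the highest, so the CKO pools lay between them. Lpar1 had a log2 fold change of 0.35 (SE 0.54, 95% interval -0.93 to 1.64, edgeR adjusted p = 0.882, exact two-sided permutation p = 0.4). Without WT pool 3 it was 1.13, and then the pools did not overlap, as for 29.3% of all genes without that pool. It was 0.85 from library 1 of each pool and 0.01 from library 2.

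The 10 oligodendrocyte markers, all tested (4 above and 6 below 0, median log2 fold change -0.14, and -0.31 to 0.06 with 1 pool left out), summed to 3378, 4021 and 5719 CPM in CKO pools 1, 2 and 3, against 2990, 2483 and 6648 CPM in WT pools 1, 2 and 3. WT pool 3 and CKO pool 3 were the highest pools for this sum as for Lpar1, and WT pools 1 and 2 the lowest for both. The part of oligodendrocytes in the Lpar1 value was not tested. The other genes of lysophosphatidic acid signalling, 8 tested of 9, stood at 4 above and 4 below 0 with a median of -0.06, and of -0.12 to 0.14 with 1 pool left out. Among them Lpar2 had 2.60, 1.41 and 0.767 CPM in CKO pools 1, 2 and 3, against 0.396, 0.307 and 0.530 CPM in WT pools 1, 2 and 3 (log2 fold change 1.95, SE 0.85, edgeR adjusted p = 0.790). Lpar6 had 22.2, 20.1 and 31.9 CPM in CKO pools 1, 2 and 3, against 8.60, 38.3 and 94.4 CPM in WT pools 1, 2 and 3, and overlapped.

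**Figure D4:**
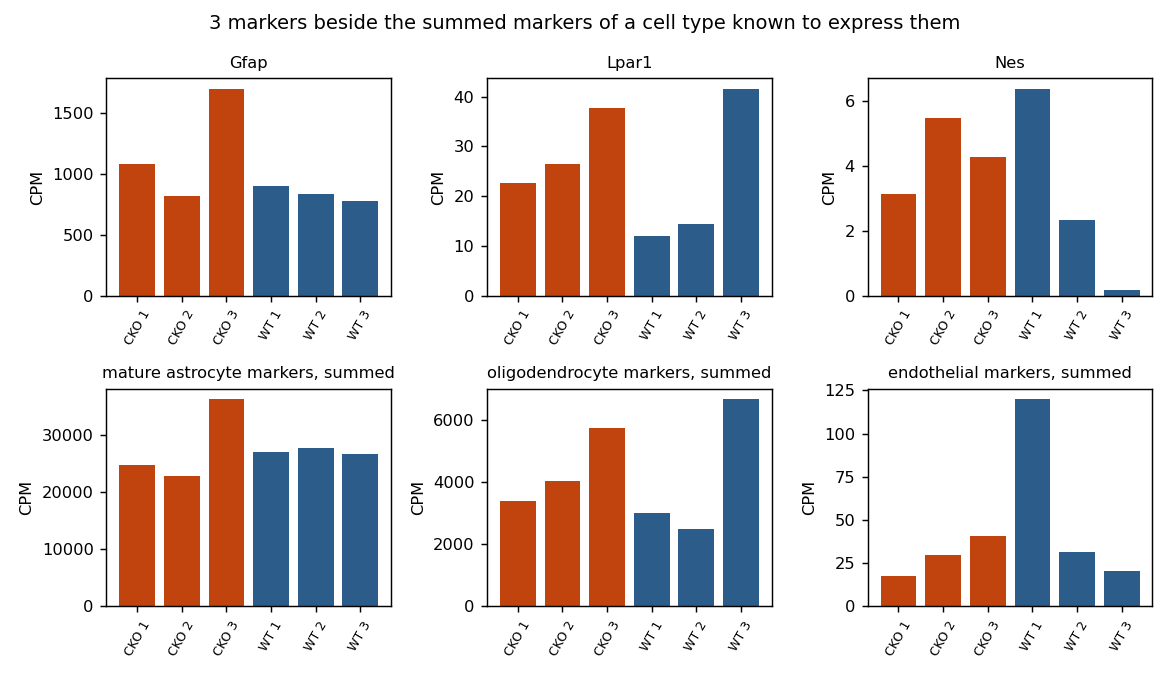
CPM of Gfap, Lpar1 and Nes in every pool (upper row) above the summed CPM of the mature astrocyte, oligodendrocyte and endothelial marker lists (lower row), with CKO pools (orange) left of WT pools (blue). Gfap and the astrocyte sum are both highest in CKO pool 3, Lpar1 and the oligodendrocyte sum in WT pool 3, and Nes and the endothelial sum in WT pool 1. Fabp7, also made by astrocytes and not drawn here, was lowest in CKO pool 3.

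Prom1 (chr5:43993620-44102032, minus strand), the membrane protein prominin of stem cell protrusions and cilia, had 35.7, 65.4 and 83.9 CPM in CKO pools 1, 2 and 3, against 45.2, 42.4 and 3.52 CPM in WT pools 1, 2 and 3. WT pool 3 was far below the rest, with 133 reads against 1796 to 4266 in the other pools, and CKO pool 1 lay below WT pools 1 and 2. With 1.02, Prom1 had the largest log2 fold change of the 9 members (SE 0.83, 95% interval -0.93 to 2.98, edgeR adjusted p = 0.814, exact two-sided permutation p = 0.3). Without WT pool 3 it was 0.49.

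The libraries of Prom1 differed widely. In WT pool 3, library 1 held 4 reads and library 2 held 129, and in WT pool 2 they held 176 and 1620. In CKO pool 2 the difference ran the other way, with 2461 reads in library 1 and 454 in library 2. Prom1 stood at 2.71 on the log2 scale, CKO over WT, from library 1 and at -0.09 from library 2. Without library 1 of WT pool 2 it was 0.50 over the pools, and without library 2 of that pool 1.72. The antisense gene Gm16401 shares exons with Prom1 and held 5 to 25 reads in CKO pools and 0 to 67 in WT pools.

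The 8 ependymal markers, 4 of them tested, summed to 5.99 to 10.8 CPM in CKO pools and to 2.99 to 13.1 CPM in WT pools. WT pool 3 was the lowest pool for this sum as for Prom1, and the sum there was near the 3.52 CPM of Prom1. In the other pools the sum was 5.99 to 13.1 CPM, against 35.7 to 83.9 CPM of Prom1. The highest sum was in WT pool 2, which had 42.4 CPM of Prom1. Foxj1, the defining transcription factor of ciliated ependymal cells, stood at 0.0526, 0.157 and 0.492 CPM in CKO pools 1, 2 and 3, against 0.158, 0.0472 and 0 CPM in WT pools 1, 2 and 3. Markers of oligodendrocyte precursors, all 8 tested, summed to 1340 to 3892 CPM in CKO pools and to 2109 to 3407 CPM in WT pools. WT pool 3, the lowest for Prom1, was the highest WT pool for that sum. The part of either cell type in the Prom1 value was not tested.

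Thbs4 and Tnc are secreted into the matrix between cells. Thbs4 (chr13:92751590-92794818, minus strand), a thrombospondin made by astrocytes and by stem cells of the ventricular wall, had 36.7, 23.2 and 39.9 CPM in CKO pools 1, 2 and 3, against 36.5, 29.95 and 25.9 CPM in WT pools 1, 2 and 3. CKO pools gave both the lowest and the highest value, around all WT pools. Thbs4 had a log2 fold change of 0.11 (SE 0.34, 95% interval -0.67 to 0.90, edgeR adjusted p = 0.942).

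Library 1 of WT pool 3 had 2.14 CPM of Thbs4 (33 reads) and library 2 of that pool 47.1 CPM (945 reads). For Thbs4 the log2 fold change was 0.62 from library 1 and -0.22 from library 2. Over the pools it turned to -0.19 without library 1 of WT pool 3, and was 0.54 without library 2 of that pool. That library 1 was thus the lowest of all 12 for Vim, Prom1 and Thbs4 and, with 3 reads, for Nes. For Nes, library 2 of that pool was about as low, with 4 reads (0.199 CPM, against 0.194 CPM in library 1). Library 1 of WT pool 3 was not low for Gfap (1032 CPM), Hopx (59.4 CPM) or Fabp7 (519 CPM).

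**Figure D5:**
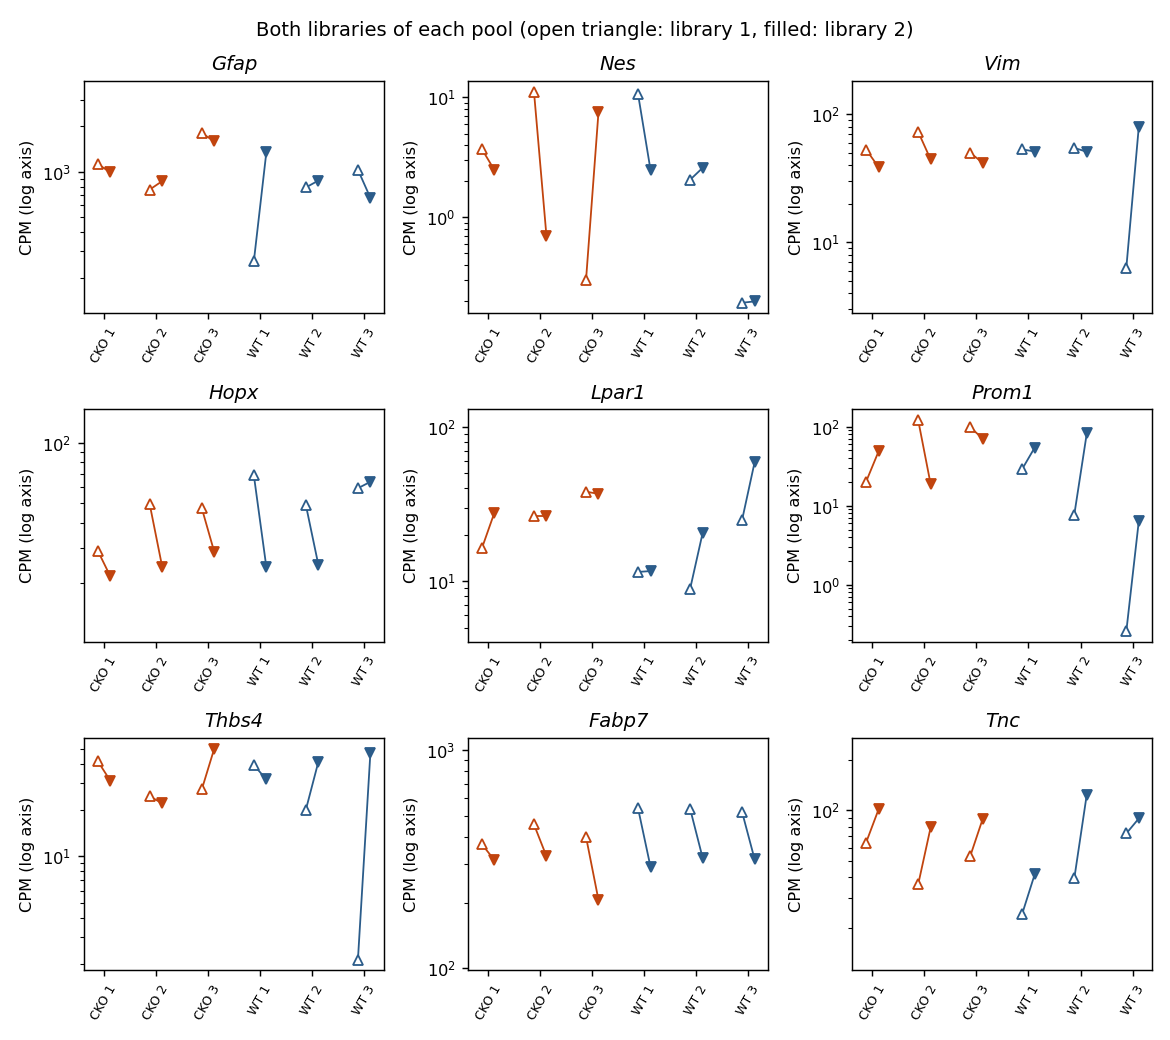
CPM of each marker in library 1 (open triangle) and library 2 (filled triangle) of every pool, on log axes that differ between panels, with CKO pools (orange) left of WT pools (blue). Library 1 of WT pool 3 lies at the bottom for Nes, Vim, Prom1 and Thbs4, and for Nes library 2 of that pool is about as low. Fabp7 is higher in library 1 and Tnc higher in library 2 in every pool.

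Tnc (chr4:63959785-64047015, minus strand), tenascin-C, a matrix protein of stem cell niches and reactive glia, had 85.2, 59.6 and 73.2 CPM in CKO pools 1, 2 and 3, against 35.5, 79.0 and 77.4 CPM in WT pools 1, 2 and 3. WT pool 1 was the lowest of all, and the other WT pools lay among the CKO pools. Tnc had a log2 fold change of 0.18 (SE 0.36, 95% interval -0.66 to 1.03, edgeR adjusted p = 0.911, exact two-sided permutation p = 0.7). Without WT pool 1 it was -0.09, and without library 1 of WT pool 2 it was -0.13. Tnc was higher in library 2 than in library 1 in 6 of 6 pools, the reverse of Fabp7. The overlapping gene 8030451A03Rik held 50 to 111 reads in CKO pools and 0 to 26 in WT pools, beside 1793 to 4857 reads of Tnc over the 6 pools.

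The related tenascins, thrombospondins and neural matrix genes, 12 tested of 14, had a median log2 fold change of -0.05, with 5 above and 7 below 0, or of -0.23 without WT pool 1 and 0.28 without WT pool 3. Cspg5, a proteoglycan of neural cells, was lower in every CKO pool, with 663, 650 and 605 CPM in CKO pools 1, 2 and 3, against 809, 768 and 804 CPM in WT pools 1, 2 and 3 (log2 fold change -0.31, SE 0.17, edgeR adjusted p = 0.790). Sparc, a matrix protein of glia and vessels, had 201, 192 and 308 CPM in CKO pools 1, 2 and 3, against 314, 244 and 307 CPM in WT pools 1, 2 and 3, and overlapped. The close relative Tnr, tenascin-R of oligodendrocyte lineage cells, had 201, 161 and 82.7 CPM in CKO pools 1, 2 and 3, against 105, 227 and 181 CPM in WT pools 1, 2 and 3.

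Of 16 other markers of radial glia-like cells, 15 were tested, with 7 above and 8 below 0 and a median log2 fold change of -0.02, or -0.18 without WT pool 1 and 0.36 without WT pool 3. Their summed level was 8718, 8076 and 11510 CPM in CKO pools 1, 2 and 3, against 4583, 6904 and 9792 CPM in WT pools 1, 2 and 3, most of it from Slc1a3, a glutamate transporter shared with astrocytes. Hes5, the Notch target that drove the Cre, had 386, 400 and 361 CPM in CKO pools 1, 2 and 3, against 234, 408 and 495 CPM in WT pools 1, 2 and 3, which is 0.01 on the log2 scale. Riiad1, on the same marker list, had 0.877, 1.30 and 1.18 CPM in CKO pools 1, 2 and 3, against 10.9, 9.20 and 16.0 CPM in WT pools 1, 2 and 3. Its log2 fold change of -3.42 (SE 0.56) had an edgeR adjusted p of 0.790. Rhcg, an ammonium transporter, had 0.807, 4.396 and 1.95 CPM in CKO pools 1, 2 and 3, against 5.74, 10.1 and 6.15 CPM in WT pools 1, 2 and 3 (log2 fold change -1.62, SE 0.75, edgeR adjusted p = 0.790). Both shared with Hopx that every CKO pool lay below every WT pool, while Hopx was the more abundant of the 3 genes. They were 2 of the 15 tested genes of the list, against 8.17% of all tested genes in that direction. For 1 other gene of the list, Lfng, every CKO pool lay above every WT pool. Lfng had 41.8, 28.8 and 31.5 CPM in CKO pools 1, 2 and 3, against 19.5, 26.2 and 22.8 CPM in WT pools 1, 2 and 3.

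Gfap, Vim and Tnc are also known to be made in larger amounts by reactive astrocytes, whose 11 markers summed to 376, 386 and 326 CPM in CKO pools 1, 2 and 3, against 174, 197 and 238 CPM in WT pools 1, 2 and 3. The sums did not overlap between the genotypes, and this rests on Serpina3n: the other 10 genes summed to 113, 94.6 and 70.7 CPM in CKO pools 1, 2 and 3, against 83.3, 93.3 and 98.8 CPM in WT pools 1, 2 and 3, which overlap. Of the 10 tested genes, 6 were above and 4 below 0, with a median log2 fold change of 0.26 (0.10 to 0.83 with 1 pool left out), and 4 of the 11 were at 0 in at least 1 pool. Serpina3n, an acute-phase protease inhibitor, had 263, 291 and 256 CPM in CKO pools 1, 2 and 3, against 90.7, 103 and 139 CPM in WT pools 1, 2 and 3 (log2 fold change 1.28, SE 0.23, edgeR adjusted p = 0.790). Serpina3n belongs to a family of near-identical genes, so its count is uncertain. Cxcl10, a chemokine, had 2.14, 3.75 and 2.38 CPM in CKO pools 1, 2 and 3, against 0.0593, 0.897 and 0.0795 CPM in WT pools 1, 2 and 3 (edgeR adjusted p = 0.790). Lcn2, another defining gene of that state, stood at 0, 0.269 and 4.13 CPM in CKO pools 1, 2 and 3, against 0.771, 0.0236 and 0.238 CPM in WT pools 1, 2 and 3. Hspb1 and Osmr, on the same list, lay on the other side of 0, at -1.97 and -0.75 on the log2 scale. The part of this state in the values of Gfap, Vim and Tnc was not tested.

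Spread between pools of 1 genotype, with both libraries of a pool summed, differed between the members. The SD of log2 CPM was 0.15 for Fabp7, 0.16 for Vim, 0.30 for Hopx, 0.35 for Thbs4, 0.38 for Gfap and 0.50 for Tnc, all below the median of 0.68 over all tested genes. It was 0.73 for Lpar1, 1.54 for Prom1 and 1.77 for Nes. The median covers genes of all levels. For some members a small SD hides unlike libraries within a pool. Libraries 1 and 2 of WT pool 3 had 6.35 and 80.2 CPM of Vim and 2.14 and 47.1 CPM of Thbs4. Those of WT pool 1 had 257 and 1343 CPM of Gfap. The 95% interval of the log2 fold change was accordingly short for Fabp7, from -0.72 to 0.18, and long for Nes, from -2.02 to 3.09.

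Patterns over the 12 libraries were compared as the root mean square difference (RMS) of centred log2 CPM, among 8891 tested genes of mean log2 CPM at least 3. This is a description over libraries that share pools and depth. Among the members, Hopx and Fabp7 were the closest pair (0.44), followed by Vim and Thbs4 (0.54) and by Lpar1 and Tnc (0.66). The furthest pair was Hopx and Prom1 (2.59). The nearest genes of all were Tm9sf2 (0.32) and Chst10 (0.33) for Gfap, H2afj (0.22) and Mthfs (0.23) for Hopx, and Psmd11 (0.20) and Wdr83 (0.22) for Fabp7. For Vim they were Pmpcb (0.24) and Tor1aip1 (0.28), for Thbs4 Gdf10 (0.22) and Zkscan5 (0.33), for Tnc Atp1a4 (0.25) and Map2 (0.28), and for Lpar1 Erbb2ip (0.33) and Rab6a (0.34). No gene came close to Nes, with Lhfpl4 at 0.94 and Gpc1 at 1.07, or to Prom1, with Diras2 at 0.81 and Pcsk7 at 0.94.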

How the data were processed

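Per the labels, GFP-positive cells were sorted and sequenced with Smart-Seq2 and Nextera XT, which do not mark strand. The authors deposited raw read counts per gene symbol for 24 runs, made with Bowtie2, HTSeq and the build GRCm38 per the submitters' processing notes. Versions, annotation and counting settings are not given in the sources used here. The 5 summary lines that name no gene were left out of all totals. Per pool, 16.0% to 35.3% of reads lay outside annotated genes, 11.2% to 21.7% were unaligned and 2.51% to 3.43% ambiguous. The summary line for reads with several alignments held 0.

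The runs of each pool (2 libraries on 2 lanes each) were summed to 6 pools. Lanes of a library agreed within sampling noise (chi-square over its degrees of freedom 0.986 to 1.01), while libraries of a pool did not (70.7 to 351). The labels do not say whether pools share animals, so p-values speak only of the spread among these pools. Genes were filtered with filterByExpr (21477 kept), scaled by TMM and compared with the quasi-likelihood F test of edgeR 4.0.16 in R 4.3.3, with no covariate and Benjamini-Hochberg adjustment over all tested genes at 0.05. For single members an exact permutation test (two-sided) of mean log2(CPM + 0.1) was added, whose smallest p is 0.1. The same edgeR test was run on library 1 and on library 2 alone. Alternatives used DESeq2 1.42.0 and limma 3.58.1, other scalings and filters, the pool number as a block, and each pool or library left out. The fitting steps were checked on simulated data with known changes. At the spread of these pools the check asked only that the sizes of the changes be recovered. It asked for calls only at a lower spread, so it does not tell how many changes would be found in these pools.

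The members and the gene lists were chosen with earlier results of these data known. The text names the 9 members, Notch2, the 2 tested genes of smallest unadjusted p of each list (1 where only 1 was tested), and the 2 genes most like each member. Further genes (Slc1a3, Hes5, Lfng, Cldn5, Foxj1, Lcn2, Hspb1, Osmr and Tnr) were named after their values were seen, as known markers. Positions and exon lengths are from GENCODE M21 and upstream sequences from RefSeq, matched by symbol for 9 of 9 members. Reads carry no molecular identifiers, so read numbers bear on counting error only.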

Additional observations from a re-analysis of the deposited data

How the results depend on the processing

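No gene passed the adjusted threshold in edgeR under any alternative, while DESeq2 called 129 genes and none of the 9 members. Fabp7 and Hopx stayed below 0, and Gfap and Lpar1 above 0, under every alternative run. Prom1 was -0.089 and Thbs4 -0.22 (log2) in library 2 only, and Vim was 0.64 in library 1 only and 0.066 with library size in place of TMM, where 2 members did not overlap. Leaving out 1 pool or 1 library in turn (the libraries were added after seeing the data) gave log2 fold changes of -0.22 to 1.79 for Nes, -0.19 to 0.54 for Thbs4, -0.13 to 0.52 for Tnc and -0.33 to 0.39 for Vim. It gave 0.49 to 1.72 for Prom1, 0.02 to 1.13 for Lpar1, 0.22 to 0.91 for Gfap, -0.84 to -0.28 for Hopx and -0.50 to -0.10 for Fabp7, and 0 to 4 members whose genotypes did not overlap. Those 4, without CKO pool 2, were Gfap, Hopx, Thbs4 and Fabp7, against 24% of all genes then. Except for the left-out samples themselves, the cause was not tested. Genes at an unadjusted p under 0.05 numbered 1269, against 1999 with no filter on low counts, 2003 with DESeq2, 667 in library 2 only, 2396 without WT pool 2, 2002 without WT pool 3, and 749, 755 and 706 without CKO pools 1, 2 and 3. Same-numbered pools did not deviate together (correlations 0.06, 0.02 and -0.03). With 3 pools per genotype and libraries that differ within a pool, these correlations cannot tell whether the numbers mark a pairing. With the pool number as a block, 0 genes passed and the log2 fold changes were 0.45 for Gfap, 1.44 for Nes, -0.03 for Vim, -0.52 for Hopx, 0.55 for Lpar1, 1.39 for Prom1, 0.09 for Thbs4, -0.28 for Fabp7 and 0.25 for Tnc. Few reads limit Nes, which had 7 reads in WT pool 3.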

Other observations

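Other cell types were read from their marker lists, and no marker passed the edgeR adjusted threshold (adjusted p = 0.790 to 0.863 for the genes named here). Among mature astrocyte markers, S100b had 187, 203 and 171 CPM in CKO pools 1, 2 and 3, against 298, 257 and 230 CPM in WT pools 1, 2 and 3, while Gja1, the main astrocyte gap junction protein, had 5094, 4576 and 7231 CPM in CKO pools, against 2254, 3472 and 4671 CPM in WT pools. The CKO pools of S100b all lay below the WT pools, and those of Gja1 overlapped them. Among oligodendrocyte markers, the myelin genes Mbp and Mobp stood at -0.58 (SE 0.31) and at -0.61 (SE 0.40) on the log2 scale, CKO over WT. Among precursor markers, with 2 above and 6 below 0 and a median of -0.11 (-0.46 to 0.21 with 1 pool left out), C1ql1 stood at -0.93 (SE 0.51) and Cspg4 at -0.54 (SE 0.33). Among vessel markers, Tek stood at -2.84 (SE 1.46) and Kdr at -2.64 (SE 1.45). The mural genes Kcnj8 and Anpep stood at -3.65 (SE 1.86) and -1.52 (SE 1.31), and genotypes overlapped for all 4. Tek, Kdr and Kcnj8 each rest on 1 WT pool. Tek had 5.10 CPM in WT pool 1 and 0.165 to 0.316 in the others. Kdr had 17.4 CPM in WT pool 3 and 0.0877 to 1.82 in the others. Kcnj8 had 5.80 CPM in WT pool 1 and 0 to 0.614 in the others. Of the 9 tested endothelial markers, 3 were above 0, and their median was 0.43 without WT pool 1. The 9 mural markers, 3 above and 6 below 0, summed to 56.8 to 102 CPM in CKO pools and to 39.5 to 110 CPM in WT pools.

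Of 10 microglia markers, 9 were above and 1 below 0 with a median log2 fold change of 0.53, which was -0.17 without CKO pool 3. Their sum was 300, 284 and 777 CPM in CKO pools 1, 2 and 3, against 376, 314 and 372 CPM in WT pools 1, 2 and 3, so CKO pool 3, the highest pool for Gfap, was also the highest here. P2ry12 had a log2 fold change of 1.14 (SE 0.80) and C1qc of 0.67 (SE 0.49). Of 9 genes of intermediate progenitors and neuroblasts, 4 were above and 5 below 0, with a median log2 fold change of -0.35. That median was 0.43 without WT pool 1, 0.32 without WT pool 3 and -0.82 without WT pool 2. The 2 genes of smallest unadjusted edgeR p were both among those above 0. Sox11, a transcription factor of young neurons, had 103, 150 and 160 CPM in CKO pools 1, 2 and 3, against 73.2, 48.7 and 88.6 CPM in WT pools 1, 2 and 3, and Dcx, a microtubule protein of neuroblasts, had 38.8, 50.6 and 24.7 CPM in CKO pools, against 11.5, 32.1 and 10.8 CPM in WT pools. Excitatory neuron markers summed to 58.5 to 131 CPM in CKO pools and to 79.0 to 405 CPM in WT pools, with Camk2a at -1.12 (SE 0.80) and Nrgn at -1.17 (SE 0.86). Both values rest on WT pool 1. Camk2a had 334 CPM there, against 87.4 and 28.9 CPM in WT pools 2 and 3. Nrgn had 40.6 CPM there, against 8.90 and 3.63 CPM in WT pools 2 and 3. The median of this list was -1.12, or 0.27 without WT pool 1. Interneuron markers summed to 38.9 to 62.1 CPM in CKO pools and to 18.9 to 44.8 CPM in WT pools, with Gad1 at 0.83 (SE 0.35) and Gad2 at 2.60 (SE 1.52). The Gad2 value rests on CKO pool 2, which had 5.56 CPM, against 0.0708 to 0.754 CPM in the other pools. Ependymal Dynlrb2 stood at -3.42 (SE 1.59) and Rsph1 at 1.14 (SE 1.45), and of 4 choroid plexus markers only Kl was tested, at 2.88 (SE 1.14), from 0.246, 1.59 and 1.30 CPM in CKO pools, against 0.0396, 0.118 and 0.265 CPM in WT pools.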
